A study of Mus musculus with 22 samples.

Results

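The 35 genes named here encode the pyruvate dehydrogenase route into the mitochondrion and the tricarboxylic acid (TCA) cycle, with the enzymes that feed and drain it. They were taken by name: 2 subunits of the mitochondrial pyruvate carrier, 5 subunits of the pyruvate dehydrogenase complex, 4 kinases and phosphatases that switch it, 14 enzymes or enzyme subunits for the steps from citrate to oxaloacetate, 4 anaplerotic and malic enzymes, and 6 proteins of the malate-aspartate shuttle. The 14 take in the cytosolic Aco1 and Idh1. The rule itself uses no measured value, although the set was proposed with earlier results of these data known. The 35 are out of 54356 genes summed from the deposited files, of which 19160 were tested in whole hearts and 16448 in ventricles. All 35 passed the filter on low counts in both. The products of 30 members work in mitochondria and those of 5 (Aco1, Idh1, Mdh1, Me1 and Got1) in the cytosol.

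Polyadenylated RNA was sequenced from C57BL/6 mouse hearts at embryonic stage E13.5. Prdm16 encodes a PR-domain transcription factor, and the embryos carried either a Prdm16 conditional knockout (cKO) or none: the controls are littermates, titled WT, whose manipulation is given as Mock. There were 3 whole hearts of each genotype, 4 left ventricles of each and 4 right ventricles of each, 22 libraries in all. The sources used here do not give the Cre driver or the floxed allele, whether controls carried either of them, whether embryos were pooled, or which ventricles shared a heart. The p-values therefore measure the spread between these libraries, which may in part be technical.

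Pyruvate made by glycolysis crosses the inner mitochondrial membrane through the mitochondrial pyruvate carrier and becomes acetyl-CoA in the pyruvate dehydrogenase complex, which kinases switch off by phosphorylation and phosphatases switch back on. Citrate synthase joins acetyl-CoA to oxaloacetate, and the cycle then oxidises citrate back to oxaloacetate, passing electrons to the respiratory chain, while the malate-aspartate shuttle carries the electrons of cytosolic NADH into the matrix. Heart muscle has dense mitochondria and leans increasingly on this oxidation as it matures, while the early embryonic heart draws much of its ATP from glycolysis.

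The depth was 38590751 to 62004017 reads in whole hearts and 14508722 to 22830716 in ventricles. Prdm16 itself, at 19.1 to 25.2 CPM (reads scaled to a common library size) in the 11 cKO libraries and 36.8 to 57.7 in the 11 controls, separated the labelled genotypes in all 3 tissues. A single library, right ventricle control 2, stood apart. It was the lowest of the 4 right ventricle controls for 31 of 35 members, with a median log2 difference of -0.32 from the other 3. Its summed TPM (a level per transcript length) was 1308 for 6 mesenchyme markers, against 603 to 657 in the other 3. For 3 smooth muscle markers it was 531 against 307 to 337, and for 9 cardiomyocyte markers 18036 against 19154 to 19384. For 4 atrial markers it was 4469 against 4117 to 4195, and for 3 ventricular markers 25227 against 29383 to 30242. Results that rest on it are given with and without it.

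Promoter sequence is shown for the 3 members whose cKO effect differed between left and right ventricle (Mdh2, Got2 and Idh3g), and for Got1, which had the most negative estimate in that test. RefSeq promoter windows of GRCm38.p6, from 250 bases before to 50 after the start, were found for 32 members. Printed here, 5′ to 3′ on the gene's strand, is the longest stretch of the 250 bases before the start that lies in no GENCODE exon. By GENCODE M21 on GRCm38, the genes are Mdh2 (ENSMUSG00000019179.10, chr5:135778480-135790398), Got2 (ENSMUSG00000031672.8, chr8:95864134-95888547), Idh3g (ENSMUSG00000002010.17, chrX:73778963-73786897) and Got1 (ENSMUSG00000025190.13, chr19:43499752-43524605). The printed stretches lie at chr5:135778399-135778479 on the plus strand for Mdh2, chr8:95888548-95888651 on the minus strand for Got2, chrX:73786898-73787027 on the minus strand for Idh3g and chr19:43524606-43524855 on the minus strand for Got1. They are 81, 104, 130 and 250 bases long, since the RefSeq window of Mdh2 and Got2 takes in the first GENCODE exon of the gene and that of Idh3g the first exon of Ssr4 on the other strand. Capitals mark matches to letters searched on both strands.
Mdh2: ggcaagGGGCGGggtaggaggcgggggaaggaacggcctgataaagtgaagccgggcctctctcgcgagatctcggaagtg
Got2: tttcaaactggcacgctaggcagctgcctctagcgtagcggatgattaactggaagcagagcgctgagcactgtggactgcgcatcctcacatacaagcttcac
Idh3g: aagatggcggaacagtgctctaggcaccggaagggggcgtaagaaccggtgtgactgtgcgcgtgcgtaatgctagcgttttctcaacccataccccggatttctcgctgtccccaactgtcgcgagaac
Got1: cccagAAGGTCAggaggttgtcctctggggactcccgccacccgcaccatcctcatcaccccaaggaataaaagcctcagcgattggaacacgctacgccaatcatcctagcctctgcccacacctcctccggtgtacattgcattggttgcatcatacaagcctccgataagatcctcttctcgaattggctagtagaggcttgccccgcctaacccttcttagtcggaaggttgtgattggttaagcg

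The site of oestrogen-related receptors, factors known to act on genes of mitochondrial metabolism, was searched as TNAAGGTCA and was in 0 of 32 member windows, beside 1.43% of 27025 genes. The palindrome bound by NRF1, another such factor, was in 0 of 32, beside 1.07% of genes. Shorter motifs were added after these results were seen. AAGGTCA, contained in the first of the motifs above, was in 2 of 32 (Got1 and Ogdh), beside 5.38% of genes. The GC box GGGCGG was in 22 of 32, or 68.75%, beside 38.2% of genes. The 27025 genes were taken whether or not they were expressed here, and a share over expressed genes was not counted. Of the 4 members printed, Mdh2 held the GC box (at -244 and at -2 from the start, the latter outside the printed stretch), Got1 held AAGGTCA, and Got2 and Idh3g held none of these letters in their windows. No test was made, and a match to these letters is not a site.

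Levels per transcript length set the members far apart. In left ventricle controls Idh2, the NADP-dependent mitochondrial isocitrate dehydrogenase, stood highest at 1220.1 ± 21.9 TPM (SD, n = 4), followed by the cytosolic malate dehydrogenase Mdh1 at 832 ± 31.4 TPM and its mitochondrial counterpart Mdh2 at 446 ± 15.7 TPM. At the other end, Pdp1, which encodes a pyruvate dehydrogenase phosphatase, stood at 7.80 ± 0.633 TPM and Pcx, the pyruvate carboxylase gene, at 6.14 ± 1.11 TPM. These last values did not overlap those of Me2, the next member up, at 13.4 ± 1.06 TPM. Summed TPM weights short transcripts heavily: those under 600 bases made 77.9% of the TPM of Slc25a12 in left ventricle controls but 3.14% of its reads, and 43.5% of the TPM of Mdh1 and 20.6% of that of Idh2. The values by library below are therefore CPM scaled with TMM factors, the unit that was tested. TMM CPM were scaled separately for hearts and ventricles.

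Most of the set fell in the left ventricle of the cKO. There, 29 of 35 members fell and 2 rose (edgeR, adjusted p under 0.05), against 13.4% lower and 12.3% higher among all genes tested. The members' median log2 fold change was -0.38, beside a median of 0.00 over all genes tested and -0.01 over the 10050 of them with a mean of at least 10 CPM; 18.1% of the latter fell. For 29 members every cKO library was below every left ventricle control. In the right ventricle this held for 3 members, and for 27 without right ventricle control 2. In whole hearts it held for 29, and for 30 without control 1. The share of all genes set apart in this way was not counted. Leaving out a library can only keep or raise such a count, and right ventricle control 2 was the lowest of its group for 31 members. In the right ventricle 9 members fell and 1 rose, against 4.19% and 6.12% of all genes and 5.43% lower of those at 10 CPM or more, with a median of -0.13. Without right ventricle control 2, 23 fell and 1 rose, against 7.12% and 7.41% of all genes, and the median was -0.21. Without control 1 or control 3 it was -0.08 in each case. In whole hearts 21 fell and none rose, against 2.07% and 1.96% of all genes and 3.55% lower of those at 10 CPM or more, with a median of -0.25. Pdk3, Cs, Dld, Dlst and Slc25a11 fell in all 3 tissues, and Pdk1, Aco1, Idh1 and Pck2 were called in none. The 9 members that fell in the right ventricle and all 21 that fell in whole hearts were among the 29 that fell in the left ventricle. The count in whole hearts rested on few libraries: it was 4, 1 and 4 without cKO replicate 1, 2 or 3, and 25, 18 and 5 without control 1, 2 or 3, and the same test with limma on log2(TPM + 1) called none. The right ventricle count was 4 or 5 without any single cKO library other than replicate 3 and 4 without control 1 or control 3, while that of the left ventricle stayed between 28 and 30 with any 1 library left out.

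**Figure D1:**
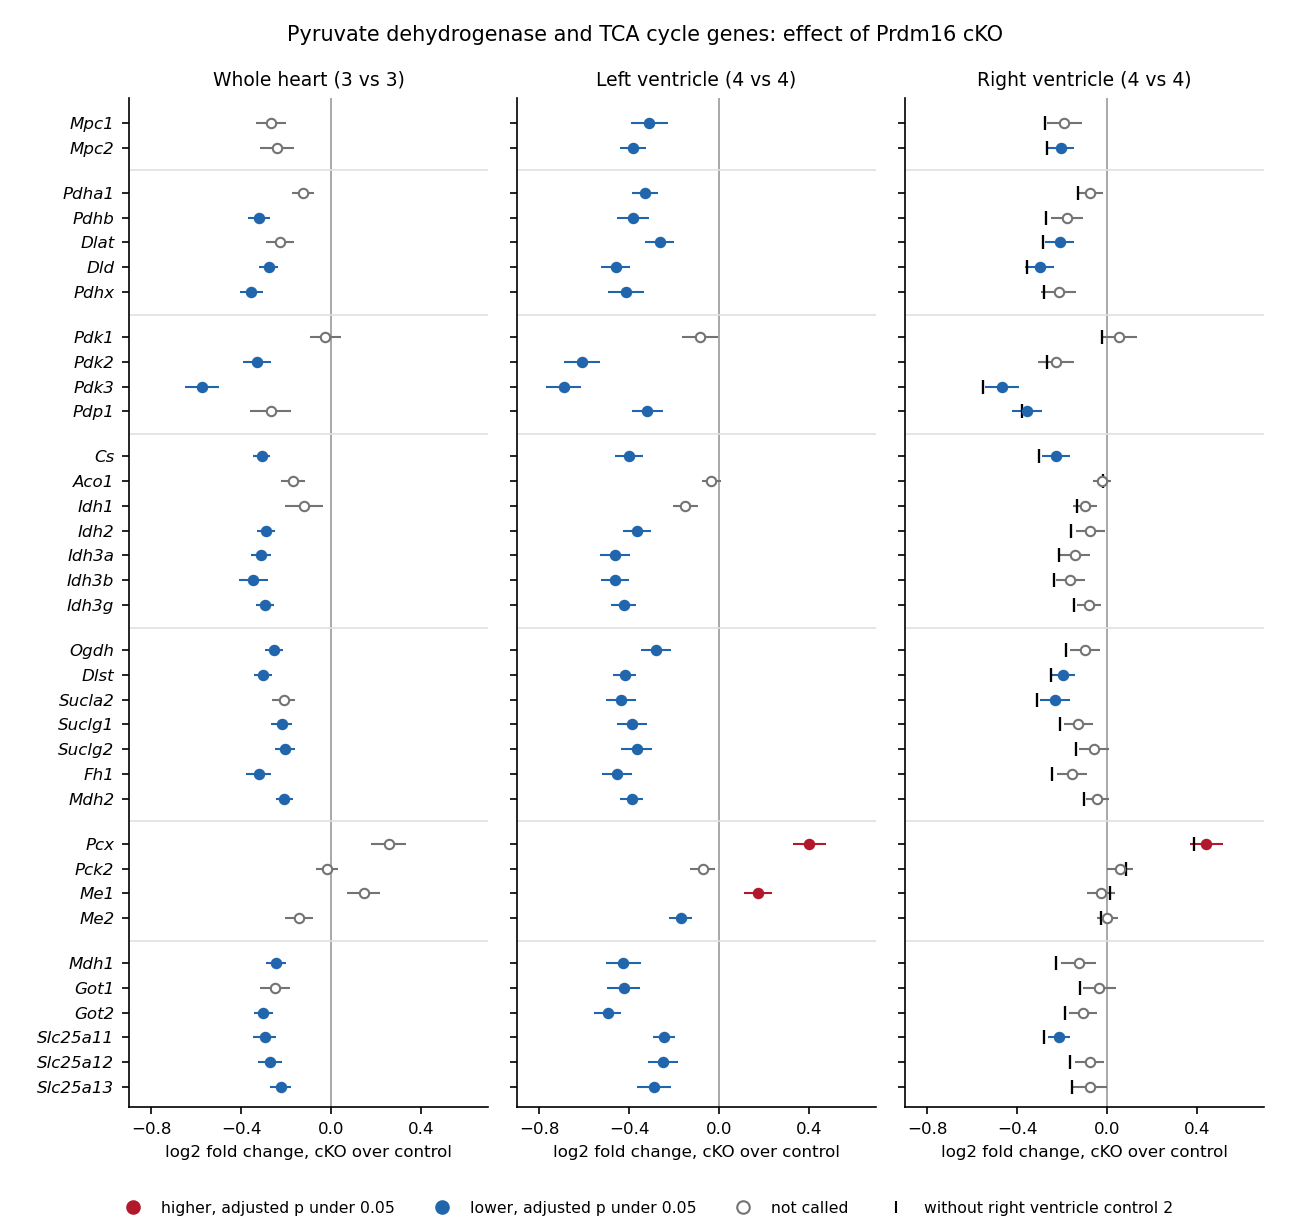
Log2 fold change, cKO over control, of the 35 members in whole heart, left ventricle and right ventricle, in the order of their roles. Points are edgeR estimates, bars are 1 SE, filled points passed an adjusted p of 0.05, and the black ticks in the right panel give the estimate without right ventricle control 2. The left ventricle panel holds 29 filled points on the lower side and 2 on the higher side.

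In the plot of each member in each library, the left ventricle cKO libraries lay below the control mean for most rows. The sum of the 35 members, in CPM, was 8357 ± 267 (SD, n = 4) in left ventricle controls and 6482 ± 52.0 in left ventricle cKO libraries, with no overlap. In right ventricles it was 9590.0 ± 1039 in controls and 8795 ± 144 in the cKO, and the lowest control, 8056, was below every cKO library. That control was control 2, and the other 3 had 10171, 10283 and 9850, above every cKO library. In whole hearts the sum was 7705 ± 70.0 (n = 3) and 6467 ± 151, again with no overlap.

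**Figure D2:**
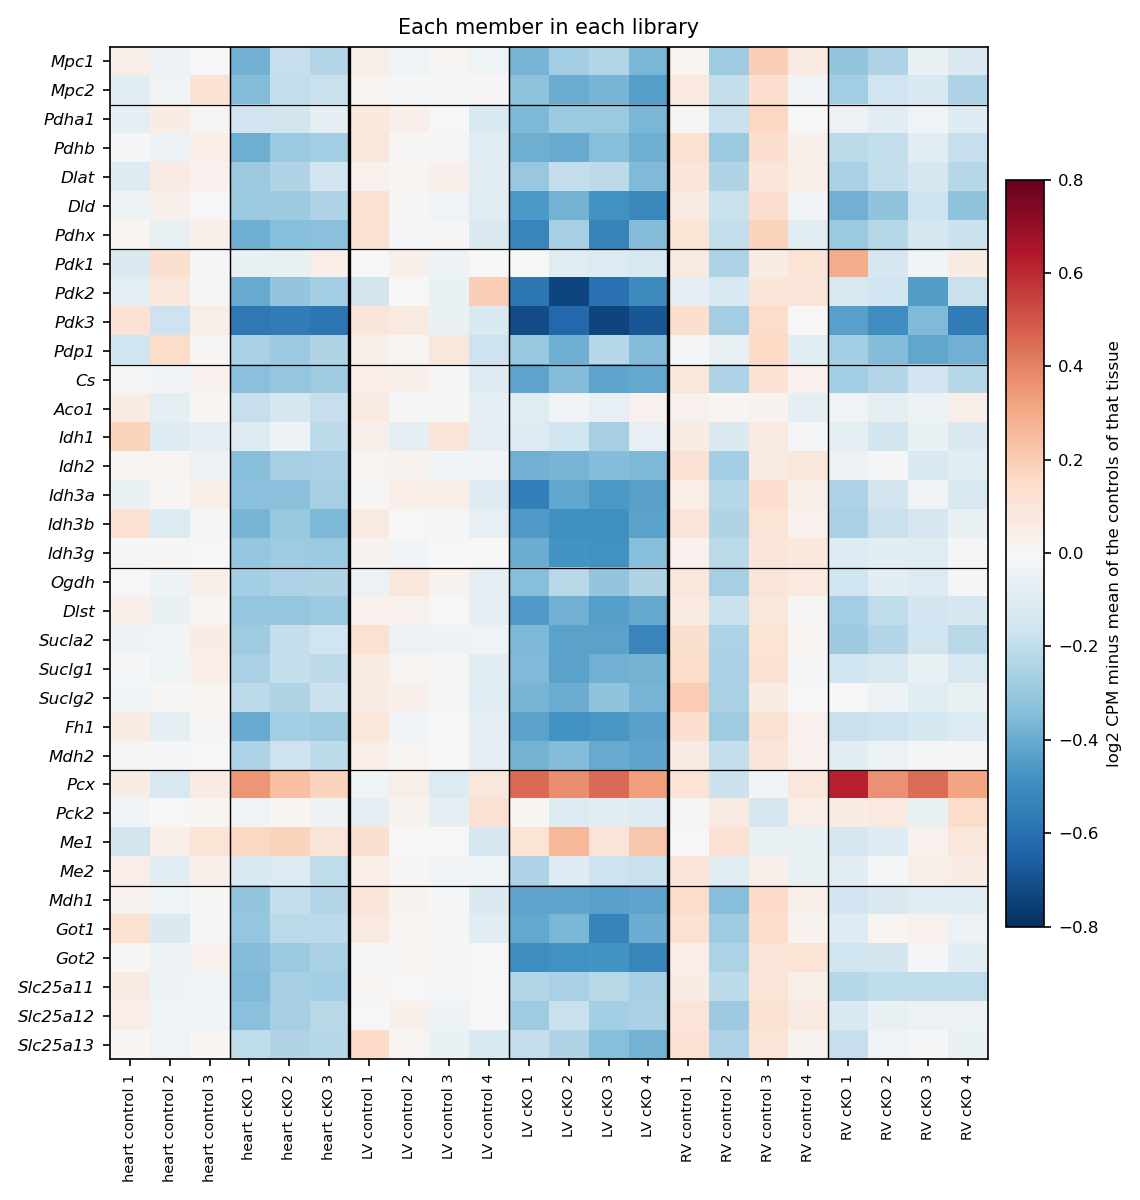
Log2 CPM of each member (rows, by role) in each of the 22 libraries (columns), minus the mean of the controls of the same tissue. Blue is below and red above that mean. The 4 left ventricle cKO columns are blue in most rows, Pcx is red in every cKO column, and right ventricle control 2 is a blue column among the right ventricle controls.

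Both subunits of the mitochondrial pyruvate carrier, which lets pyruvate into the matrix, fell in the left ventricle. Mpc2 had 41.6, 40.6, 40.5 and 41.2 CPM in controls and 32.7, 31.1, 31.7 and 30.2 in the cKO, a log2 fold change of -0.38 ± 0.06 SE, adjusted p = 0.00013. Mpc1 had 35.8, 33.8, 35.2 and 33.8 CPM in controls and 26.8, 28.6, 29.5 and 26.8 in the cKO, a log2 fold change of -0.31 ± 0.08 SE, adjusted p = 0.01. For both genes the 2 left ventricle groups were fully apart. In right ventricles Mpc2 had 53.1, 44.0, 55.0 and 49.5 CPM in controls and 41.4, 45.0, 46.2 and 42.4 in the cKO, and it fell there too (-0.21 ± 0.06 SE, adjusted p = 0.028), although control 2 lay within the cKO range. Mpc1 had 46.4, 37.7, 52.6 and 48.3 CPM in controls and 36.9, 38.7, 44.2 and 42.5 in the cKO. These overlapped and the gene was not called (-0.19 ± 0.08 SE, adjusted p = 0.15), but without right ventricle control 2 it was (-0.28, adjusted p = 0.0042). In whole hearts Mpc2 had 39.3, 41.1 and 45.4 CPM in controls and 32.9, 36.5 and 37.0 in the cKO and was not called (adjusted p = 0.14). Mpc1, with 39.8, 37.2 and 38.5 CPM in controls and 29.5, 33.8 and 32.7 in the cKO, was not called either (adjusted p = 0.073), although all 3 cKO hearts were below all 3 controls for both genes. A processed pseudogene, Mpc1-ps, holds between 0 and 6.18% as many reads as Mpc1, so reads could be split between them.

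All 5 genes of the pyruvate dehydrogenase complex fell in the left ventricle: Pdha1 and Pdhb, the E1 subunits that decarboxylate pyruvate, Dlat, the E2 acetyltransferase, Dld, the E3 dihydrolipoamide dehydrogenase that the 2-oxoglutarate dehydrogenase complex also uses, and Pdhx, which binds E3 to the core. Dld changed most, with 214, 199, 194 and 186 CPM in controls and 144, 152, 142 and 138 in the cKO, a log2 fold change of -0.46 ± 0.06 SE, adjusted p = 4.8e-05. Pdha1 had 351, 341, 329 and 304 CPM in controls and 258, 269, 269 and 257 in the cKO, a log2 fold change of -0.33 ± 0.06 SE, adjusted p = 0.00042. Neither gene overlapped between the genotypes. The other members of the complex fell by 0.42 (Pdhx), 0.38 (Pdhb) and 0.26 (Dlat) on the log2 scale.

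In right ventricles Dld had 252, 213, 265 and 237 CPM in controls and 184, 193, 215 and 193 in the cKO, a log2 fold change of -0.30 ± 0.06 SE, adjusted p = 0.0049, so it fell, with 1 cKO library above the lowest control. Dlat fell as well (-0.21 ± 0.06 SE, adjusted p = 0.044), a call that 16 of 25 alternative settings lost. Pdha1 had 405, 355, 451 and 402 CPM in controls and 389, 377, 392 and 375 in the cKO there, with a log2 fold change of -0.07 ± 0.06 SE, and was not called with or without control 2 (adjusted p = 0.49 and 0.084). Pdhb and Pdhx were called without control 2 only, at -0.27 and -0.28, and Dld and Dlat were then at -0.36 and -0.29. In whole hearts Dld had 215, 228 and 222 CPM in controls and 180.3, 181 and 187 in the cKO, fully apart, and fell by 0.28. Pdhx and Pdhb fell there by 0.35 and 0.32. Pdha1, at 319, 349 and 338 CPM in controls and 301, 303 and 319 in the cKO, was not called (adjusted p = 0.24), nor was Dlat (adjusted p = 0.097).

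The 3 members that encode kinases, which phosphorylate and inactivate the complex, moved unequally. Pdk3 fell in all 3 tissues and had the most negative log2 fold change of the 35 in each. It had 115, 113, 104 and 98.8 CPM in controls and 65.5, 69.5, 64.6 and 66.9 in the cKO in left ventricles, 1.62-fold lower (-0.69 ± 0.08 SE, adjusted p = 6.7e-06). Right ventricles had 132, 99.4, 134 and 120.3 CPM in controls and 89.4, 85.3, 94.6 and 82.0 in the cKO (-0.47 ± 0.08 SE, adjusted p = 0.00074). Whole hearts had 128, 105 and 123 CPM in controls and 79.5, 80.0 and 79.0 in the cKO (-0.57 ± 0.07 SE, adjusted p = 0.0072). In each tissue every cKO library was below every control, right ventricle control 2 included, and without that library the right ventricle value was -0.55.

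Pdk2 followed in the left ventricle, with 70.1, 77.5, 74.6 and 88.8 CPM in controls and 51.8, 46.6, 51.1 and 54.4 in the cKO, 1.53-fold lower (-0.61 ± 0.08 SE, adjusted p = 3.2e-05) and without overlap. In right ventricles it had 63.2, 61.3, 71.2 and 71.7 CPM in controls and 60.9, 59.8, 48.9 and 58.9 in the cKO, where the groups were apart but the gene was not called (adjusted p = 0.092), except without control 2 (-0.27, adjusted p = 0.041). Whole hearts had 60.2, 67.2 and 63.0 CPM in controls and 48.0, 50.9 and 52.5 in the cKO, and Pdk2 fell there by 0.33. Pdk1 had 239, 246, 233 and 239 CPM in controls and 239, 223, 221 and 219 in the cKO in left ventricles, with overlapping groups and a log2 fold change of -0.08 ± 0.08 SE, adjusted p = 0.51. It was not called in whole hearts (adjusted p = 0.89) or right ventricles (adjusted p = 0.76). Pdp1, the phosphatase gene, fell in both ventricles, by 0.32 in the left and 0.36 in the right. In whole hearts Pdp1 was not called (adjusted p = 0.18).

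Pdk1 made 40.6% ± 0.64 (SD, n = 4) of the summed TPM of Pdk1, Pdk2 and Pdk3 in left ventricle controls and 49.3% ± 1.46 in the cKO, with no overlap. In right ventricles its share was 42.2% ± 1.36 and 46.3% ± 2.79, overlapping. In whole hearts it was 46.7% ± 2.70 and 54.7% ± 0.87 (n = 3), apart. The share of Pdk3 was 36.4% ± 2.77 and 29.8% ± 1.76 in left ventricles, 38.8% ± 0.91 and 33.8% ± 2.51 in right ventricles, and 38.5% ± 1.85 and 32.2% ± 0.97 in whole hearts, apart in each. Leaving out transcripts under 600 bases, the Pdk3 shares of right ventricles overlapped, at 38.4% ± 1.47 and 32.9% ± 3.34. It gave 40.6% ± 0.70 and 49.4% ± 1.49 for Pdk1 in left ventricles. Shares are of these 3 members alone, with no kinase gene from outside the 35 in the sum. They are a description and were not tested.

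**Figure D3:**
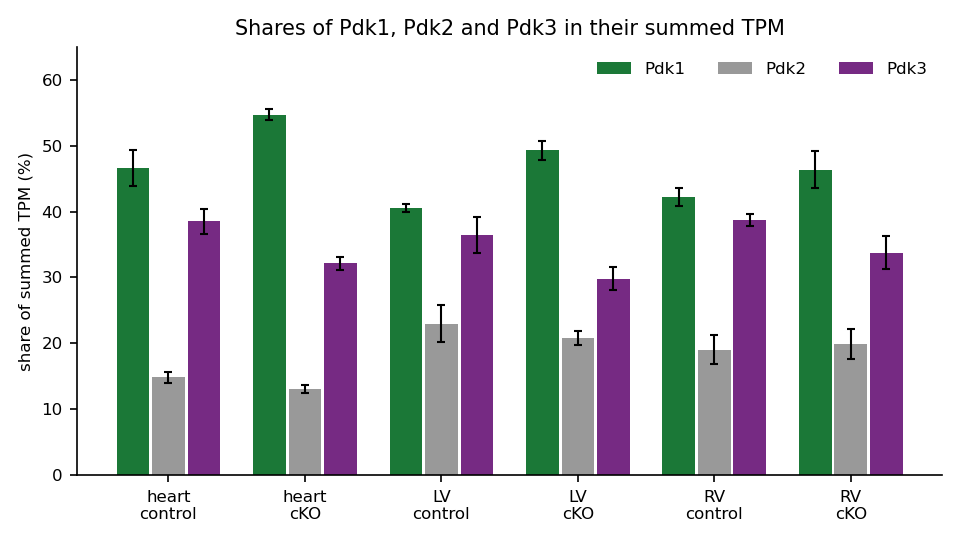
Mean share of Pdk1, Pdk2 and Pdk3 in the summed TPM of the 3 genes, in percent, for each tissue and genotype. Bars are means and whiskers SD over 3 (heart) or 4 (ventricle) libraries. The Pdk1 bar is taller and the Pdk3 bar shorter in the cKO than in the controls of each tissue.

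From citrate to 2-oxoglutarate, the 5 genes of this group with mitochondrial products fell in the left ventricle and the 2 with cytosolic products were not called. Idh3g, a regulatory subunit of the NAD-dependent isocitrate dehydrogenase, had 209, 202, 204 and 204 CPM in controls and 156, 147, 146 and 162 in the cKO, a log2 fold change of -0.42 ± 0.06 SE, adjusted p = 2.9e-05. Idh3b, another subunit of the same enzyme, had 207, 197, 195 and 188 CPM in controls and 144, 140.0, 140.3 and 146 in the cKO, a log2 fold change of -0.46 ± 0.06 SE, adjusted p = 4.4e-05. Both were fully apart, and the catalytic subunit Idh3a fell by 0.46. Cs, the citrate synthase gene, had 654, 649.8, 635 and 588 CPM in controls and 471, 496, 472 and 474 in the cKO, a log2 fold change of -0.40 ± 0.06 SE, adjusted p = 0.00014. Idh2, the most abundant member, fell by 0.37. The cytosolic aconitase Aco1, also known as an iron regulatory protein, was at -0.04 ± 0.04 SE (adjusted p = 0.6), and the cytosolic NADP-dependent Idh1 at -0.15 ± 0.05 SE (adjusted p = 0.051, and 0.031 with right ventricle control 2 left out of the shared fit). For both, cKO and control libraries overlapped.

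In whole hearts the same 5 fell: Idh3b by 0.35, Cs by 0.31, Idh3a by 0.31, Idh3g by 0.29 and Idh2 by 0.29. Idh3g had 152, 154 and 153 CPM in controls and 123, 126 and 125 in the cKO. Idh3b had 195, 166 and 179 CPM in controls and 139, 146 and 140.3 in the cKO. Cs had 629, 624 and 647 CPM in controls and 503, 511 and 520.2 in the cKO. The 3 genes were each apart between the genotypes. In right ventricles Cs, with 936, 742, 953 and 901 CPM in controls and 728, 748, 792 and 751 in the cKO, was the member of the group that was called (-0.23 ± 0.06 SE, adjusted p = 0.026). Idh3g had 215, 181, 224 and 222 CPM in controls and 196, 197, 196 and 207 in the cKO. Idh3b had 251, 197, 252 and 239 CPM in controls and 195, 207, 213 and 224 in the cKO. All 3 overlapped through control 2 alone. Without it, Cs was at -0.30, and Idh3b (-0.24), Idh3a (-0.21), Idh2 (-0.16) and Idh3g (-0.15) were called too.

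All 7 members between 2-oxoglutarate and oxaloacetate fell in the left ventricle. They cover the 2-oxoglutarate dehydrogenase complex (Ogdh and Dlst), the 3 subunits of succinyl-CoA synthetase (Suclg1, with the ADP-forming Sucla2 or the GDP-forming Suclg2), fumarase (Fh1) and mitochondrial malate dehydrogenase (Mdh2). Dlst had 354, 354, 347 and 329 CPM in controls and 253, 265, 255 and 261 in the cKO, a log2 fold change of -0.42 ± 0.05 SE, adjusted p = 1.4e-05. Mdh2 had 526, 516, 506 and 481 CPM in controls and 389.8, 398, 384 and 379 in the cKO, a log2 fold change of -0.39 ± 0.05 SE, adjusted p = 2.6e-05. Neither overlapped. The others fell by 0.45 (Fh1), 0.44 (Sucla2), 0.39 (Suclg1), 0.37 (Suclg2) and 0.28 (Ogdh), each with the groups apart. Sucla2 made 57.1% ± 2.08 (SD, n = 4) of the summed TPM of Sucla2 and Suclg2 in left ventricle controls and 55.6% ± 2.62 in the cKO.

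In right ventricles 2 of the 7 fell. Dlst had 469, 394, 474 and 449 CPM in controls and 367, 387, 399.9 and 406 in the cKO and fell by 0.19 (adjusted p = 0.021), and Sucla2 fell by 0.23. Mdh2 had 669, 561, 683 and 655 CPM in controls and 604, 619.9, 636 and 634 in the cKO, overlapping, with a log2 fold change of -0.04 ± 0.05 SE and adjusted p = 0.68. Without control 2, Fh1, Suclg1 and Ogdh were called as well, at -0.24, -0.21 and -0.18, while Mdh2 stayed uncalled at -0.10 (adjusted p = 0.058). In whole hearts 6 of the 7 fell: Fh1 by 0.32, Dlst by 0.30, Ogdh by 0.25, Suclg1 by 0.22, Suclg2 by 0.21 and Mdh2 by 0.21. Dlst had 342, 321 and 336 CPM in controls and 269, 269 and 271 in the cKO. Mdh2 had 453, 448 and 451 CPM in controls and 379.8, 401 and 389.9 in the cKO. Both were apart, and Sucla2 was not called (adjusted p = 0.073).

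Both members that rose in the left ventricle belong to the enzymes that feed or drain the cycle. Pcx, which carboxylates pyruvate to oxaloacetate, rose in both ventricles. It had 22.2, 23.6, 21.2 and 24.3 CPM in controls and 31.3, 29.6, 31.2 and 28.7 in the cKO in the left, 1.32-fold higher (0.40 ± 0.07 SE, adjusted p = 0.00056). It had 25.9, 21.3, 23.6 and 25.5 CPM in controls and 37.0, 31.0, 32.8 and 29.9 in the cKO in the right, 1.36-fold higher (0.44 ± 0.07 SE, adjusted p = 0.00062), and 0.39 without control 2. In whole hearts it had 22.8, 20.1 and 23.0 CPM in controls and 28.0, 25.8 and 24.7 in the cKO and was not called (adjusted p = 0.14). In all 3 tissues every cKO library was above every control of that tissue.

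Me1, the cytosolic NADP-dependent malic enzyme, had 85.9, 78.4, 78.7 and 71.6 CPM in controls and 84.7, 94.5, 84.4 and 91.1 in the cKO in left ventricles, and its groups overlapped. It was called higher there (0.17 ± 0.06 SE, adjusted p = 0.048), but 13 of 25 alternative settings lost the call. Right ventricles had 49.3, 53.6, 47.4 and 47.2 CPM in controls and 45.0, 45.9, 50.5 and 52.6 in the cKO, and whole hearts 56.1, 63.9 and 66.9 CPM in controls and 69.8, 70.3 and 66.6 in the cKO. Neither was called (adjusted p = 0.86 and 0.36). Me2, the mitochondrial NAD-dependent malic enzyme, had 28.4, 27.5, 26.9 and 26.7 CPM in controls and 23.1, 25.4, 24.4 and 24.2 in the cKO in left ventricles, apart, and fell there (-0.17 ± 0.05 SE, adjusted p = 0.017). It had 37.1, 32.4, 35.5 and 33.1 CPM in controls and 32.6, 34.2, 35.6 and 35.9 in the cKO in right ventricles and 36.7, 33.3 and 36.4 CPM in controls and 32.6, 32.9 and 30.8 in the cKO in whole hearts, and was called in neither. Pck2, the mitochondrial phosphoenolpyruvate carboxykinase gene, was not called in any tissue, with log2 fold changes of -0.02, -0.07 and 0.06 in whole heart, left and right ventricle.

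All 6 malate-aspartate shuttle genes fell in the left ventricle. The mitochondrial aspartate aminotransferase Got2 had 422, 431, 429 and 425 CPM in controls and 302, 306, 306 and 296 in the cKO, 1.41-fold lower (-0.50 ± 0.06 SE, adjusted p = 1.5e-05). Its cytosolic counterpart Got1 had 163, 157, 154 and 146 CPM in controls and 117, 120.3, 107 and 118 in the cKO (-0.43 ± 0.07 SE, adjusted p = 0.00036). For each, all 4 cKO libraries were below all 4 controls. Mdh1, the cytosolic malate dehydrogenase, fell by 0.43. The 3 carriers fell less: Slc25a13 and Slc25a12, the aspartate-glutamate carriers, by 0.29 and 0.25, and Slc25a11, the 2-oxoglutarate-malate carrier, by 0.25. Mdh1 and Got1 were the 2 of 5 cytosolic members that fell in this tissue, beside 27 of 30 mitochondrial members. Got1 made 32.9% ± 1.27 (SD, n = 4) of the summed TPM of Got1 and Got2 in left ventricle controls and 34.1% ± 3.27 in the cKO.

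In right ventricles Got2 had 527, 426, 544 and 548 CPM in controls and 455, 459, 505 and 479 in the cKO, with overlap through control 2, and was not called (adjusted p = 0.31). Without control 2 it was, at -0.19 (adjusted p = 0.0016). Got1 had 233, 176, 236 and 218 CPM in controls and 199, 217, 219 and 208 in the cKO, and was not called with or without control 2 (adjusted p = 0.84 and 0.11). Slc25a11 was the shuttle gene called there (-0.21 ± 0.05 SE, adjusted p = 0.0089), and Mdh1 and Slc25a12 joined it without control 2, at -0.23 and -0.17. In whole hearts Got2 had 365, 353 and 372 CPM in controls and 286, 295 and 303 in the cKO, apart, and fell by 0.30, with Slc25a11 (-0.30), Slc25a12 (-0.27), Mdh1 (-0.25) and Slc25a13 (-0.23). Got1 had 175, 149 and 159.7 CPM in controls and 129.9, 138 and 139 in the cKO, also apart, and was not called (adjusted p = 0.096). Some values depended on the unit. On log2(TPM + 1) with limma the left ventricle log2 difference of Slc25a12 was -0.013 and the whole heart difference of Fh1 was -0.04.

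The cKO effect differed between ventricles for 3 members, and none differed the other way. A test of the left minus the right effect called 3 of 35 members, all more negative in the left, against 0.973% in that direction and 0.462% in the other among all genes tested and 1.37% in that direction among those at 10 CPM or more. They were Got2 (-0.39 ± 0.09 SE, adjusted p = 0.033), Mdh2 (-0.35 ± 0.07 SE, adjusted p = 0.023) and Idh3g (-0.34 ± 0.08 SE, adjusted p = 0.039), 3 genes of mitochondrial matrix enzymes. Their left ventricle cKO values, given above, lay below every other ventricle library. This was not particular to them: it also held for members not called here, among them Cs, Idh3a, Idh3b, Dlst, Suclg1 and Mdh1. In right ventricles the genotypes overlapped through control 2 alone for Got2, Mdh2 and Idh3g, and without it every cKO library was below every control. Control 2 was the lowest control for each of them, and leaving out the lowest control can only move the groups apart. The median difference over the 35 was -0.20, beside 0.00 over all genes. Differences were negative for 33 of 35. The share of negative differences among all genes was not counted, so the medians, and not this count, compare the members with all genes. Got1 had the most negative estimate, -0.39 ± 0.10 SE, adjusted p = 0.07, and Me1 the most positive, 0.20 ± 0.09 SE, adjusted p = 0.33, and neither was called. Without right ventricle control 2 the differences of Me1 (0.16), Pdp1 (0.06), Slc25a11 (0.03), Dlat (0.02) and Pcx (0.01) were positive and the rest negative.

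Right ventricle control 2 enters this comparison. When it was left out, the median difference was -0.13 and 6 members were called, against 1.42% lower and 0.733% higher among all genes: the same 3, at -0.31 (Got2), -0.29 (Mdh2) and -0.28 (Idh3g), with Got1 (-0.30), Idh2 (-0.21) and Fh1 (-0.21). For the other members a difference between the ventricles was not shown. With 1 of the other libraries left out the count ranged from 0, without left ventricle cKO 3, left ventricle control 1 or 2 or right ventricle cKO 4, to 5, without right ventricle control 3. It was 1 without left ventricle cKO 1, 2 or 4, left ventricle control 3 or 4, or right ventricle cKO 2 or 3. The call of Got2 was lost under 13 of 24 alternative settings, that of Idh3g under 14 and that of Mdh2 under 7.

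**Figure D4:**
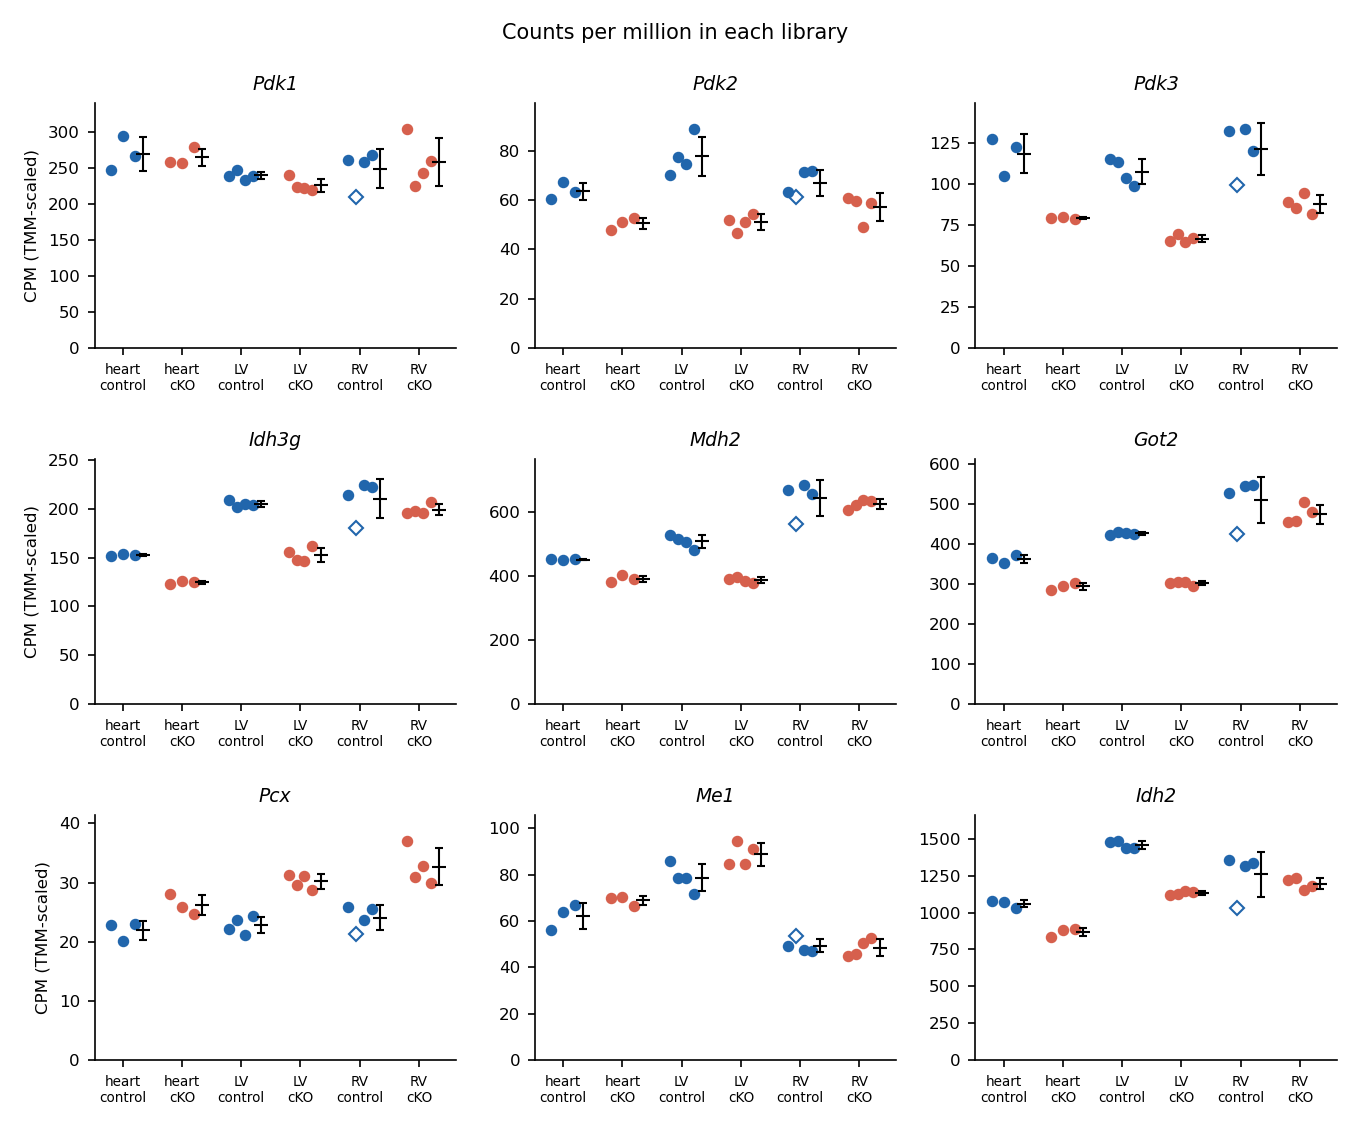
TMM-scaled CPM of 9 members in each of the 22 libraries, by tissue and genotype (control blue, cKO red), with the mean and SD to the right of each group. The open diamond is right ventricle control 2. Idh3g, Mdh2, Got2 and Pdk3 are lower in left ventricle cKO libraries than in any other ventricle group, Pcx is higher in cKO than control in each tissue, and Pdk1 overlaps.

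The 2 ventricles differed in controls, where 22 of 35 members were lower in the left than in the right and 2 were higher, against 12% and 9.02% of all genes tested and 17.5% lower of those at 10 CPM or more. Log2 fold changes, left over right, were as follows. Of the carrier and pyruvate dehydrogenase genes, all 7 were lower: Mpc1 (-0.42), Mpc2 (-0.30), Pdha1 (-0.28), Pdhb (-0.23), Dlat (-0.38), Dld (-0.29) and Pdhx (-0.36). No kinase or phosphatase gene was called. In the cycle, Cs (-0.48), Idh3a (-0.36), Idh3b (-0.25), Ogdh (-0.29), Dlst (-0.37), Sucla2 (-0.33), Suclg1 (-0.37), Fh1 (-0.25) and Mdh2 (-0.34) were lower. Outside it, Me2 (-0.34), Mdh1 (-0.26), Got1 (-0.48), Got2 (-0.26), Slc25a11 (-0.33) and Slc25a13 (-0.25) were lower. Cs and Got1 had the most negative values of all 35, also without right ventricle control 2 (-0.56 and -0.56). The 2 higher were Me1, at 0.67 ± 0.06 SE, adjusted p = 2.3e-06, and Idh2, at 0.21 ± 0.06 SE, adjusted p = 0.023. Without right ventricle control 2 Idh2 was at 0.13, still called, and 3 of 25 alternative settings lost its call. The values of Me1 in left and right ventricle controls, given above, were fully apart. In the same comparison 4 of 9 cardiomyocyte markers (median -0.15) and 1 of 3 ventricular markers (median -0.10) were lower. Without right ventricle control 2, 25 were lower and 3 higher, against 14.8% and 12.2% of all genes, with Pdk3 (-0.26), Idh3g (-0.11) and Slc25a12 (-0.17) added on the lower side and Pck2 (0.18) on the higher. Scaling matters here for all genes: 1483 were higher and 1979 lower with TMM, and 2290 higher and 1294 lower with library totals alone, under which 4 members were higher and 21 lower.

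In the cKO the gap was wider in value: the median log2 fold change of the members, left over right, was -0.47, beside -0.26 in controls. Without right ventricle control 2 the medians were -0.47 and -0.34. There 26 members were lower and 1 higher, against 18.3% and 14.5% of all genes tested and 26.3% lower of those at 10 CPM or more. Both carrier genes, all 5 pyruvate dehydrogenase genes and Pdk3 were lower: Mpc1 (-0.54), Mpc2 (-0.48), Pdha1 (-0.54), Pdhb (-0.43), Dlat (-0.43), Dld (-0.45), Pdhx (-0.56) and Pdk3 (-0.40). In the cycle the lower ones were Cs (-0.66), Idh3a (-0.69), Idh3b (-0.56) and Idh3g (-0.38), and Ogdh (-0.48), Dlst (-0.59), Sucla2 (-0.53), Suclg1 (-0.63), Suclg2 (-0.21), Fh1 (-0.55) and Mdh2 (-0.69). Of the rest, Me2 (-0.51), Mdh1 (-0.56), Got1 (-0.87), Got2 (-0.65), Slc25a11 (-0.36), Slc25a12 (-0.26) and Slc25a13 (-0.47) were lower, and Got1 had the most negative value of all 35. Slc25a12 was at 0.0424 with limma on log2(TPM + 1). Library totals alone gave 3931 genes higher and 2004 lower, in place of 2387 and 3011, with 25 members lower and 1 higher. Me1 alone was higher (0.87 ± 0.06 SE, adjusted p = 7.2e-08). Idh2, higher in the left ventricle of controls, was at -0.08 ± 0.06 SE in the cKO (adjusted p = 0.37). It was called lower when right ventricle control 2 was left out of the shared fit (-0.08, adjusted p = 0.042), as was Pdk1 (-0.19). Markers differed in the cKO too: 7 of 9 cardiomyocyte (median -0.35) and 3 of 3 ventricular markers (median -0.55) were lower in the left. Higher in the left were 5 of 5 epicardial, 4 of 6 endothelial and 4 of 6 mesenchyme markers. Their part in the members' gap was not tested. The change in the members' gap is the difference tested above, which called 3 members, and these comparisons share libraries.

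**Figure D5:**
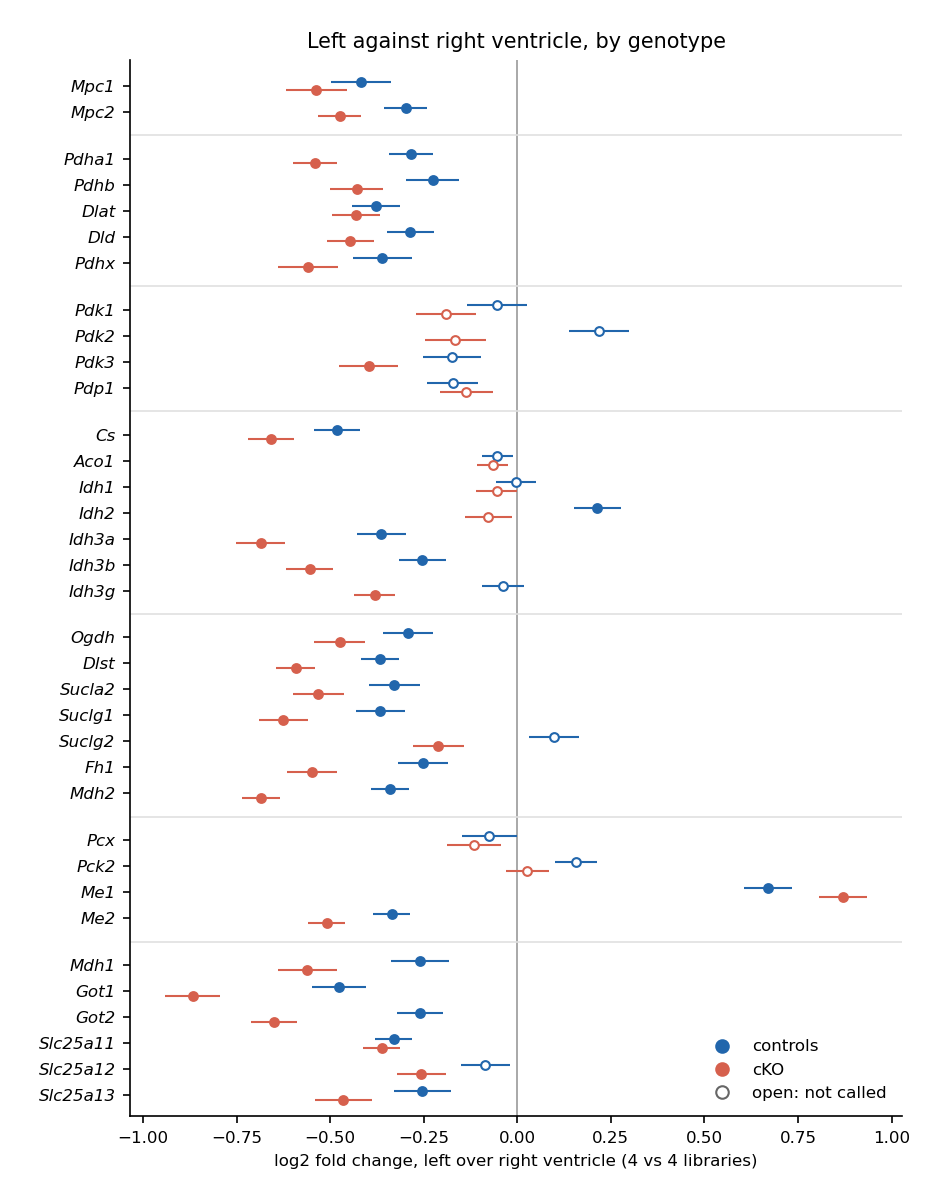
Log2 fold change, left over right ventricle, of the 35 members in controls (blue) and in the cKO (red), in the order of their roles. Points are edgeR estimates with bars of 1 SE, and open points were not called. Red points lie to the left of blue ones for most members, a direction whose share among all genes was not counted. Me1 stands alone at the right in both genotypes, and the separation was called for Idh3g, Mdh2 and Got2.

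The rest of the pathway was read from a list of 26 further genes of pyruvate, TCA and lactate metabolism, 25 of them tested in ventricles. In the left ventricle 17 of 25 fell and none rose, with a median of -0.25, against 13.4% lower among all genes tested. Named by the smallest p, these include the succinate dehydrogenase genes Sdha (-0.57) and Sdhd (-0.51), whose enzyme belongs to both the cycle and the respiratory chain, and Ldhb (-0.54), which encodes the heart form of lactate dehydrogenase. In the right ventricle 6 of 25 fell (median -0.14), against 4.19% of all genes, and in whole hearts 9 of 26 (median -0.16), against 2.07%. None of the list was called in the difference between ventricles. Some genes that the naming rule takes are not reported here.

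Markers of cell types moved beside the members. In the left ventricle 7 of 9 cardiomyocyte markers fell (median -0.27), among them Myl3 (-0.47), Myh7 (-0.41), Tnni1 (-0.34) and Tnnt2 (-0.27), and their summed TPM was 17865 to 19056 in controls and 14852 to 15692 in the cKO. All 3 ventricular markers fell there and in whole hearts, with left ventricle values of -1.14 (Hey2), -0.52 (Myl2) and -0.49 (Irx4). In the same comparison 5 of 6 endothelial markers rose, with summed TPM of 338 to 352 and 410.2 to 462, and 4 of 5 epicardial markers rose, with 82.2 to 93.6 and 115 to 133. Of the remaining lists, 3 of 4 atrial, 2 of 5 macrophage, 1 of 6 mesenchyme, 1 of 3 smooth muscle and 1 of 9 erythroid markers rose, and summed TPM of the liver, lung and skeletal muscle markers stayed at or below 5.84 in every library. Against the cardiomyocyte markers, the summed TPM of the 35 members was 32.4% ± 0.83 (SD, n = 4) of theirs in left ventricle controls and 31.1% ± 0.84 in the cKO, ranges of 31.3 to 33.4 and 30.1 to 32.2, which overlapped. The same share was 34.2% ± 1.76 and 33.2% ± 1.42 in right ventricles, where none of the 9 cardiomyocyte and 3 ventricular markers was called. In right ventricles 5 of 9 erythroid markers were higher in the cKO (median 1.04), with summed TPM of 13826 to 32898 in controls and 32109.9 to 61322 in the cKO. There, 2 of 4 atrial markers were higher too, with 4117 to 4469 and 5725 to 6002, as was 1 each of the endothelial, epicardial and smooth muscle markers. In whole hearts the members' share was 40.8% ± 2.18 and 40.8% ± 0.91 (n = 3), with 4 of 9 cardiomyocyte markers lower, 2 of 4 atrial markers and 1 of 6 endothelial markers higher. These shares rest on summed TPM, in which short transcripts weigh heavily, and were not computed without such transcripts. In the test of the left minus the right cKO effect, 2 of 3 ventricular markers were lower (median -0.53), against 0.973% of all genes tested. None of the 9 cardiomyocyte (median -0.20), 5 epicardial (median 0.37) or 6 endothelial markers (median 0.08) was called in it. In bulk samples fewer cells of a type and less RNA per cell cannot be told apart, and the part of these markers in the members' values was not tested. The share of reads from the mitochondrial genome was 6.30% to 6.88% in left ventricle controls and 5.34% to 5.91% in the cKO. In right ventricles it was 6.65% to 7.38% and 5.65% to 6.46%, also apart. In whole hearts it was 4.73% to 5.95% and 5.13% to 5.74%, which overlapped.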

How the data were processed

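Per the labels' protocols, RNA was extracted with TRIzol (RNA integrity numbers 6.1 to 10) and sequenced from stranded mRNA libraries. The deposited files give, per transcript, estimated counts and TPM from Salmon 1.2.1, per the submitters' processing notes, which also name GRCm38.p6 and DESeq2 1.22.2. Of 140658 transcripts, 140137 matched GENCODE M21 and were summed per gene. The unmatched 521 carried up to 0.204% of the reads. Rounded sums were tested with edgeR 4.0.16 (quasi-likelihood F test, TMM, filterByExpr) under R 4.3.3. P-values were adjusted by Benjamini-Hochberg across every gene tested, with a threshold of 0.05. The fits took 6 whole hearts alone, and 16 ventricle libraries in 1 model of 4 group means. No library repeated another (0 identical). In simulated counts at the real depths, the heart fit recovered 36% and the left ventricle fit 74% of genes changed by 0.5 on the log2 scale. The right ventricle comparison recovered 66%, and the difference between ventricles 56%. The members' median change was smaller than 0.5 in every comparison, and changes below 0.5 were not simulated. Alternatives used DESeq2 1.42.0, limma 3.58.1 on log2(TPM + 1), other scalings, length-scaled counts, no filter, a replicate block and leaving out each library. The members and the lists were chosen with earlier results of these data known. All called members are named with their log2 fold change. Values by library are given, in each group of roles, for the 2 members with the smallest p in the left ventricle, for members called higher there or different between ventricles, and for the largest change in each comparison, with Pdk1 added.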

Additional observations from a re-analysis of the deposited data

Results flagged for a closer look

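In 140 comparisons of 1 member within a group of 4 ventricle libraries, 11 had a single library far from the other 3 (Dixon's test at the 95% level). Chance flags about 1 in 20 such groups, and members of 1 library are not independent. Right ventricle control 2 gave 5 of the 11, all low: Dlat at 159.1 CPM (194.9 to 201.4 in the other 3), Pdk1 at 208.9 (258.3 to 266.9), Idh2 at 1031 (1313 to 1356), Ogdh at 567.7 (719.3 to 731.8) and Slc25a12 at 105.8 (135.8 to 140.7). Right ventricle cKO 1 was low for Slc25a11, at 148 CPM (150.3 to 150.7), and Slc25a12, at 119 (124.3 to 125.3). Right ventricle cKO 3 was low for Pdk2, at 48.91 (58.92 to 60.93), and right ventricle cKO 4 high for Idh3g, at 207.1 (195.5 to 197.4). In left ventricles, cKO 2 was high for Cs, at 496.4 (470.8 to 474.4), and control 1 high for Sucla2, at 155.4 (138.4 to 140).

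The test of the cKO effect in the left minus that in the right ventricle gave log2 differences of -0.3892 for Got2, -0.3458 for Mdh2 and -0.3431 for Idh3g, each with all 4 left ventricle cKO libraries below all 4 left ventricle controls. In right ventricles the genotypes overlapped through control 2 alone, which was low for all 3 genes. Without it the right ventricle groups were apart too, the 3 calls stood, and the differences were -0.31, -0.29 and -0.28. Leaving out the lowest control can only move the groups apart.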

How the results depend on the processing

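Over the single results of members that were called, 2379 of 2666 alternative values kept direction and call, 286 lost the call and 1 changed sign. Calls gained by other results are not in this tally. The change of sign was for Slc25a12, left against right ventricle in the cKO, at 0.0424 with limma on log2(TPM + 1). The count of members lower in whole hearts, 21, was 2 with length-scaled counts, 0 with limma and 1 with the replicate block, and 1 to 25 with each library left out in turn. In the right ventricle the 9 lower became 4 with length-scaled counts, 5 with limma, 3 when only the 8 libraries compared were fitted, and 4 to 23 leaving out a library. The 1 higher there became 0 with limma. In the left ventricle the 2 higher became 1 with length-scaled counts, limma or the replicate block, and 1 to 2 leaving out a library. The 3 members that differed between ventricles became 5 with DESeq2, 0 with length-scaled counts, 0 with limma, and 0 to 6 leaving out a library. The 2 members higher in the left than the right ventricle of controls became 4 with library totals, 4 with the replicate block and 1 when only the 8 libraries compared were fitted, and 1 to 3 leaving out a library. The causes were not tested. Correlations of same-numbered libraries' deviations ran from -0.148 to 0.234, and only those between cKO ventricles were mostly above 0.1, so the numbers were not shown to pair libraries. The replicate block left the lower calls of the left and right ventricle at 29 and 9, and those between ventricles of controls and of the cKO at 22 and 26. The biological coefficient of variation, a single value over all genes of a fit, was 0.184 in hearts (3 a group) and 0.0929 in ventricles. Its part in these counts was not tested.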

Other observations

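Nnt, a gene of the wider list that encodes the mitochondrial NAD(P) transhydrogenase, was singled out after its values were seen because its spread within groups was wide. Its level was 18.9 to 56.9 TPM in left ventricle cKO libraries and 42.1 to 88.1 TPM in left ventricle controls, 30.3 to 59.0 and 43.7 to 65.4 TPM in right ventricles, and 24.0 to 44.0 and 29.2 to 42.1 TPM in whole hearts. The left ventricle difference was not called (edgeR, log2 fold change -0.66, adjusted p = 0.089).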
